A study of Mus musculus with 12 samples.

Results

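The 10 genes described here mark the stem cells of the colonic crypt or are direct targets or regulators of Wnt signaling: Lgr5, Lgr4, Rnf43, Znrf3, Axin2, Ascl2, Sox9, Ephb2, Ephb3 and Smoc2. They were chosen by name among 35241 gene symbols, with earlier results of these data known. All 10 were among the 15880 symbols with a mean of at least 0.5. RNA was measured by sequencing in full-thickness distal colon of 12 mice. The Spry2IEKO group (n = 6) carried homozygous floxed Spry2 alleles and Cre under the villin promoter, which acts in the intestinal epithelium. The Spry2FF group (n = 6) carried the same floxed alleles without Cre. Litters A and B each gave 3 mice of each genotype, with 3 males and 3 females among Spry2FF mice and 1 male and 5 females among Spry2IEKO mice. In litter A, Spry2FF replicates 2 and 3 were male and every Spry2IEKO mouse was female. Genotype differences within litter A are therefore mixed with sex. The deposited labels give 6 weeks as the age at dissection and 8 weeks as the age at which homogenate was taken, so the exact age is unclear. The labels give no treatment.

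At the base of the colonic crypt, stem cells divide under the influence of Wnt ligands from the surrounding stroma, and their daughters differentiate as they move toward the lumen. Wnt ligands bind Frizzled and LRP receptors, which stops the degradation of beta-catenin, and beta-catenin then acts with TCF factors on target genes. R-spondins strengthen this signal by binding LGR receptors, which removes the ubiquitin ligases Rnf43 and Znrf3 that otherwise clear Frizzled from the cell surface. Several targets of the pathway restrain it in turn, and Eph receptors on crypt base cells keep cell populations in place along the crypt. The study asked how loss of Sprouty2, an intracellular inhibitor of receptor tyrosine kinase signaling, affects epithelial cell lineages and signaling.

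Values are normalized TPM, the authors' abundance per transcript length, scaled once more between mice and summed over the transcripts of a gene. Their totals ran from 918257 to 1068555 per mouse and are not read counts, so depth is unknown from the values. Spry2 itself was 27.7 ± 3.29 (SD, n = 6) in Spry2FF mice and 20.04 ± 1.59 (SD, n = 6) in Spry2IEKO mice. The groups did not overlap (exact permutation of the mice, two-sided, p = 0.00216, which is as small as this design can give), although the adjusted p of limma over all genes was 0.16. Part of the RNA came from muscle, stroma and immune cells, in which the villin promoter is not active. The epithelium was well represented, with Cdh1 at 430 ± 37.4 (SD, n = 6) in Spry2FF mice and 370.0 ± 36.7 (SD, n = 6) in Spry2IEKO mice. In such bulk tissue, fewer cells of a type and less RNA per cell cannot be told apart.

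None of the 10 genes passed the threshold between genotypes, an adjusted p under 0.05 over all genes tested by limma, which 0.0315% of all genes (5 of 15880) passed. At an unadjusted p under 0.05, 3 of the 10 were lower in Spry2IEKO mice, namely Rnf43, Ephb2 and Znrf3, and 0 were higher, against 3.17% of all genes lower and 3% higher. Of the 10, 7 were lower in mean on the log2 scale, against 47.9% of all genes, and the median difference was -0.09 against 0.01 over all genes. Spread over the 12 mice, the levels ran from Lgr4 at a mean of 106.6 down to Smoc2 (23.9), Sox9 (20.1), Rnf43 (20.0), Ephb2 (14.7), Axin2 (11.3), Ephb3 (11.2), Ascl2 (6.41), Znrf3 (4.94) and Lgr5 (4.28). The ranges of neighbors in this order overlapped, except that every mouse had more Lgr4 than any had Smoc2. Between genotypes, the mice overlapped for all 10 genes, whereas 0.214% of all genes were lower and 0.189% higher in every Spry2IEKO mouse than in every Spry2FF mouse.

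**Figure D1:**
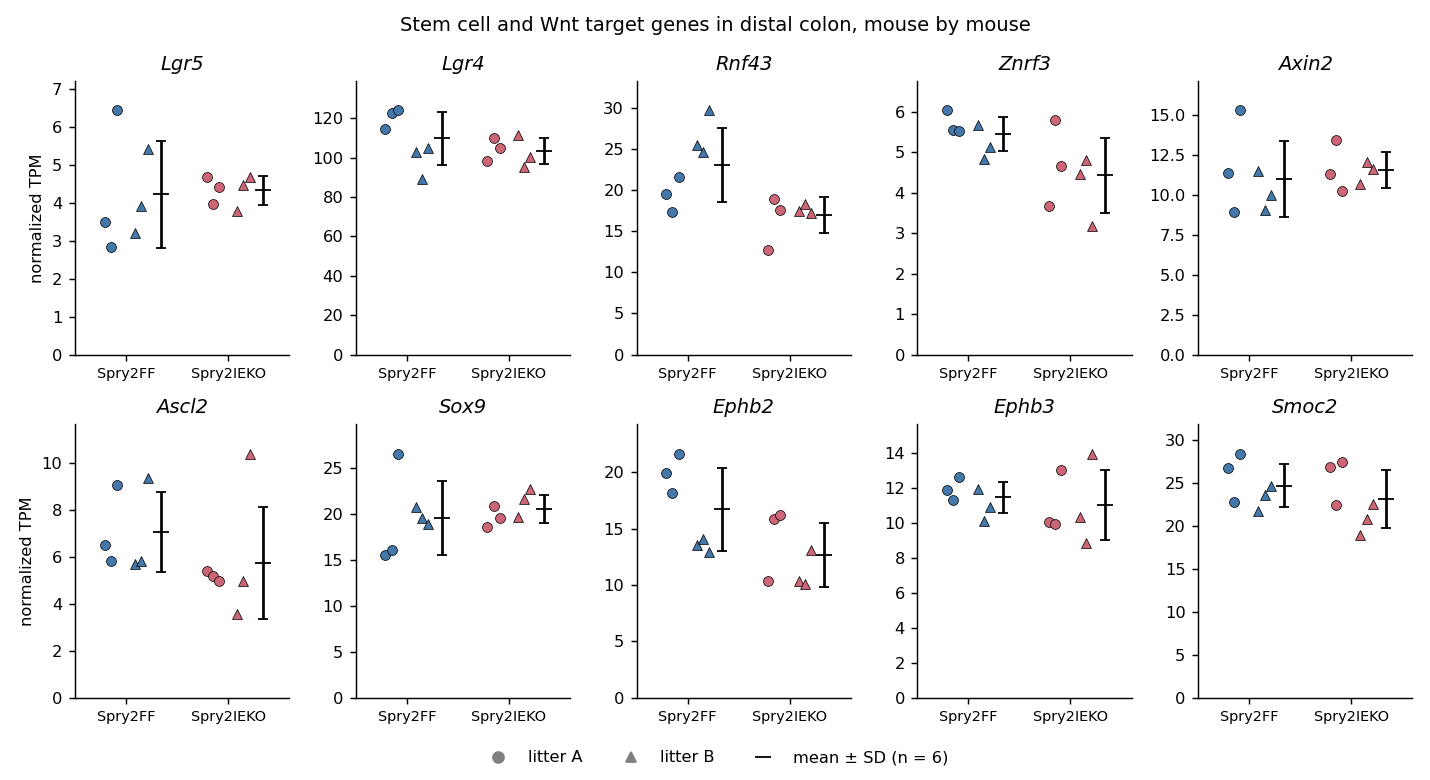
Normalized TPM of the 10 genes (vertical axes, each from 0) in each mouse, by genotype, with circles for litter A, triangles for litter B and bars for the mean ± SD of 6 mice. The groups overlapped for every gene, and the Spry2IEKO mice of litter B were all below the Spry2FF mice of litter B for Rnf43 and Znrf3.

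Lgr5 (ENSMUSG00000020140, chromosome 10, 115450311 to 115587780 on the minus strand of GRCm38) encodes the R-spondin receptor that marks cycling crypt base stem cells. Its normalized TPM in Spry2FF mice was 3.50, 2.84 and 6.45 for litter A and 3.22, 3.93 and 5.44 for litter B. Spry2IEKO mice of litter A had 4.68, 3.96 and 4.42, and those of litter B had 3.78, 4.48 and 4.69. The Spry2IEKO values all lay within the range of the Spry2FF values. On the log2 scale Spry2IEKO mice differed from Spry2FF mice by 0.08 (standard error 0.174, 95% interval -0.30 to 0.45, adjusted p = 0.96 by limma). The coefficient of variation was 33.4% among Spry2FF mice and 8.74% among Spry2IEKO mice, a difference in spread that was not tested. Without Spry2FF replicate 7, the highest mouse, the log2 fold change was 0.20, and without Spry2FF replicate 3, the lowest, it was -0.01. With sex as a covariate it was -0.08, and in females alone -0.20, neither of which passed.

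Lgr4 (ENSMUSG00000050199, chromosome 2, 109917647 to 110014257, plus strand) encodes a related R-spondin receptor with broader expression along the crypt and in other tissues. In litter A it was 114, 123 and 124 in Spry2FF mice and 98.4, 109.8 and 105 in Spry2IEKO mice. In litter B it was 103, 89.1 and 105 in Spry2FF mice and 111, 95.2 and 100.3 in Spry2IEKO mice. The genotypes were thus separate in litter A, where all 3 Spry2IEKO mice were lower, and overlapped in litter B. Sex also differed between the genotypes in litter A, and its part within that litter was not tested. Over all mice the log2 fold change was -0.08 (standard error 0.0814, 95% interval -0.26 to 0.10, adjusted p = 0.907 by limma), the mean of -0.20 for litter A and 0.05 for litter B. The interaction of genotype and litter was 0.25 (standard error 0.123, unadjusted p = 0.067, adjusted p = 0.998 by limma), so a difference between the litters was not shown.

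Rnf43 (ENSMUSG00000034177, chromosome 11, 87662722 to 87735539, plus strand), a Wnt target that encodes a ligase clearing Frizzled receptors, had the lowest unadjusted p of the 10 genes. Spry2FF mice had 19.5, 17.3 and 21.5 in litter A and 25.5, 24.6 and 29.7 in litter B. Spry2IEKO mice had 12.7, 18.9 and 17.5 in litter A and 17.4, 18.2 and 17.2 in litter B. Spry2IEKO replicate 4 of litter A was the lowest mouse, and each Spry2IEKO mouse of litter B was below each Spry2FF mouse of its litter, whereas the genotypes overlapped in litter A. The means were 23.0 ± 4.48 (SD, n = 6) in Spry2FF mice and 17.0 ± 2.19 (SD, n = 6) in Spry2IEKO mice. The log2 fold change was -0.42 (standard error 0.132, 95% interval -0.70 to -0.13, unadjusted p = 0.00742, adjusted p = 0.674 by limma). Litter A alone gave -0.26 and litter B alone -0.58. When each mouse was left out in turn it ran from -0.49 to -0.34, with an unadjusted p of at most 0.0182. The difference did not pass the threshold over all genes in any of these fits.

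Znrf3 (ENSMUSG00000041961, chromosome 11, 5276324 to 5444847, minus strand) encodes the paralogous ligase. Its level was 6.03, 5.54 and 5.52 in Spry2FF mice of litter A and 5.66, 4.83 and 5.12 in those of litter B. Spry2IEKO mice had 3.67, 5.79 and 4.65 in litter A and 4.46, 4.79 and 3.17 in litter B. All but Spry2IEKO replicate 5, at 5.79, were below every Spry2FF mouse. The means were 5.45 ± 0.421 (SD, n = 6) and 4.42 ± 0.917 (SD, n = 6). This was a log2 fold change of -0.29 (standard error 0.132, 95% interval -0.58 to -0.01, unadjusted p = 0.0455, adjusted p = 0.797 by limma). The difference was -0.27 within litter A and -0.31 within litter B. Leaving out 1 mouse at a time gave -0.37 to -0.21, with an unadjusted p under 0.05 in 3 of 12 cases and the highest, 0.0978, without Spry2IEKO replicate 12. With sex as a covariate it was -0.26 (unadjusted p = 0.1001 by limma), and in females alone -0.23 (unadjusted p = 0.281 by limma).

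Rnf43 was the gene whose total was shared among the most transcripts, so its transcripts were examined one by one. Of 9 annotated transcripts, 8 were above 0 in at least 1 mouse, and protein coding transcripts made up 55.8% of the total over all mice. The transcript with the highest mean, ENSMUST00000040089.4, starts at 87699897 inside the gene and took 27.4% of the total. It was 6.90 ± 1.73 (SD, n = 6) in Spry2FF mice and 4.08 ± 2.20 (SD, n = 6) in Spry2IEKO mice, and it was listed at 0 in Spry2IEKO replicate 5. ENSMUST00000165679.7, which starts at 87663087, was highest in that same mouse, at 7.99, and its group means were 2.91 ± 2.04 and 3.57 ± 2.63 (SD, n = 6 each). These transcripts share most of their sequence, so values of single transcripts are less certain than their sum. Within Rnf43 the annotation also holds a small nuclear RNA gene, Gm25968, on the opposite strand and a sense intronic gene, 1110028F11Rik. Genes on the opposite strand overlap Axin2 and Smoc2 (both antisense RNAs) and Lgr5 (A930009A15Rik, with a mean of 0.0553 over the 12 mice). The sources do not say whether the quantification used strand, so reads of either strand cannot be told apart there.

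**Figure D2:**
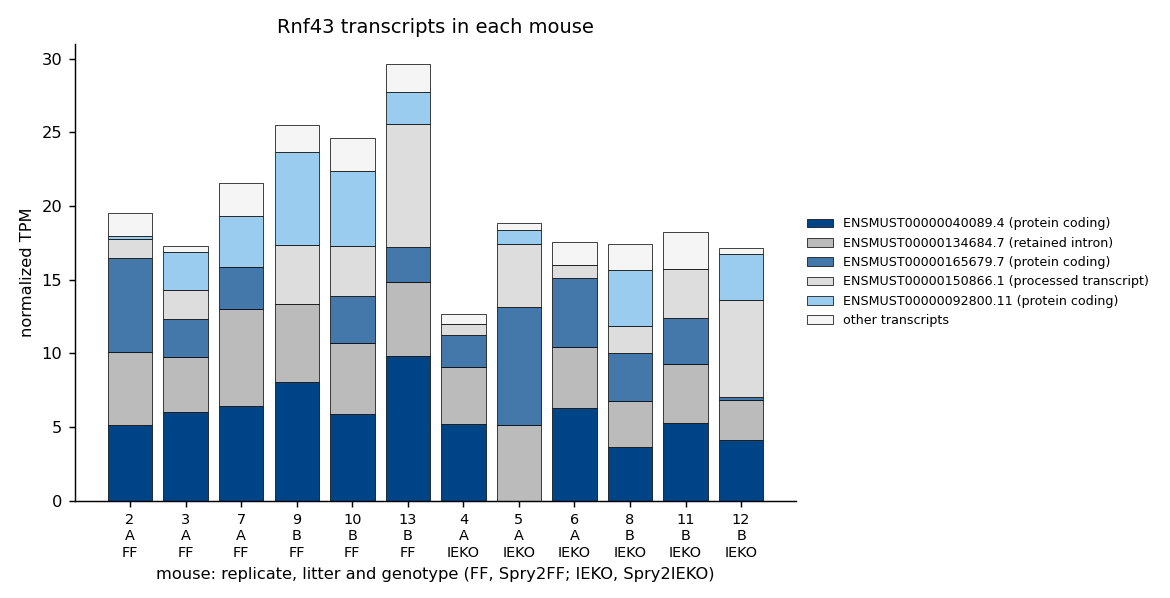
Normalized TPM (vertical axis) of Rnf43 in each of the 12 mice, stacked by transcript, with protein coding transcripts in blue and noncoding ones in gray. The total was highest in the 3 Spry2FF mice of litter B (24.6 to 29.7) and lowest in Spry2IEKO replicate 4 (12.7), and the mix of transcripts varied among mice of 1 genotype.

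Summed over protein coding transcripts alone, a choice made after the data had been seen, Rnf43 was 13.2 ± 1.43 (SD, n = 6) in Spry2FF mice, from 11.4 to 14.7, and 9.10 ± 1.57 (SD, n = 6) in Spry2IEKO mice, from 7.51 to 11.2. The highest Spry2IEKO mouse was then below the lowest Spry2FF mouse, which held for 0.194% of 13950 genes on this scale. Here the log2 fold change was -0.52 (unadjusted p = 0.000535, adjusted p = 0.277 by limma). It still did not pass over all genes. The noncoding retained intron transcript ENSMUST00000134684.7 was 5.06 ± 0.908 (SD, n = 6) and 3.84 ± 0.853 (SD, n = 6) in the same groups.

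The 4 protein coding transcripts of Rnf43 have 4 annotated starts, and RefSeq windows were found for 2 of them, those of ENSMUST00000165679.7 and ENSMUST00000040089.4. Below are the 250 bases before each of these 2 starts from RefSeq on GRCm38.p6, 5′ to 3′, with CG dinucleotides in capitals, shown because Rnf43 had the lowest unadjusted p of the 10 genes. No window is shown for ENSMUST00000092800.11, which starts at 87664274 and was 3.30 ± 2.20 (SD, n = 6) in Spry2FF mice and 1.32 ± 1.72 (SD, n = 6) in Spry2IEKO mice.
Rnf43 upstream start (chr11:87662837-87663086, plus strand): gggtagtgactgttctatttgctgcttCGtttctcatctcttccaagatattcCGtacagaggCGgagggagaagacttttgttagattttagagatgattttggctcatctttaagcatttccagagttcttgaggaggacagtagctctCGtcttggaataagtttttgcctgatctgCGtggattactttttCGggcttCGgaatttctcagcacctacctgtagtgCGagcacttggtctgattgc
Rnf43 internal start (chr11:87699647-87699896, plus strand): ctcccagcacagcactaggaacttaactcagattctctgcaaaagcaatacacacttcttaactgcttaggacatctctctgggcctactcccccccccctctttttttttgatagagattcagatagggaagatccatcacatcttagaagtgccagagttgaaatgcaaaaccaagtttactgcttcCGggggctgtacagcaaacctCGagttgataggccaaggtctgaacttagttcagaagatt
The upstream window holds 8 CG dinucleotides and the internal one 2, against a median of 6 over 32851 RefSeq windows of the same length. The upstream window overlaps an exon of the noncoding transcript ENSMUST00000134684.7, and the internal one lies in an intron of the longer transcripts.

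Axin2 (ENSMUSG00000000142, chromosome 11, 108920349 to 108950783, plus strand), a scaffold of the beta-catenin degradation complex, is used as a direct readout of Wnt signaling. Spry2FF mice had 11.3, 8.90 and 15.3 in litter A and 11.5, 9.02 and 9.97 in litter B. Spry2IEKO mice had 11.3, 13.4 and 10.2 in litter A and 10.7, 12.05 and 11.6 in litter B. All Spry2IEKO values lay within the Spry2FF range. Its log2 fold change was 0.09 (standard error 0.126, 95% interval -0.19 to 0.36, adjusted p = 0.934 by limma). Over protein coding transcripts it was -0.13 and for the top transcript alone -0.12. Both leave out a processed transcript, ENSMUST00000139682.1, which was 2.33 ± 1.02 (SD, n = 6) in Spry2FF mice and 3.83 ± 1.74 (SD, n = 6) in Spry2IEKO mice. The direction for Axin2 therefore depended on which transcripts were counted.

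Ascl2 (ENSMUSG00000009248, chromosome 7, 142966829 to 142969264, minus strand) encodes a transcription factor that maintains crypt base stem cells and is itself a Wnt target. Spry2FF mice had 6.54, 5.84 and 9.06 in litter A and 5.71, 5.83 and 9.39 in litter B. Spry2IEKO mice had 5.41, 5.21 and 4.96 in litter A and 3.57, 4.97 and 10.4 in litter B. Of the Spry2IEKO mice, 5 were below every Spry2FF mouse and Spry2IEKO replicate 12, at 10.4, was above every one. Its log2 fold change was -0.31 (standard error 0.214, 95% interval -0.78 to 0.15, adjusted p = 0.856 by limma). Without Spry2IEKO replicate 12 it was -0.49, with an unadjusted p of 0.0108. With sex as a covariate it was -0.47 (unadjusted p = 0.0362 by limma), and in females alone -0.39 (unadjusted p = 0.178 by limma).

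Sox9 (ENSMUSG00000000567, chromosome 11, 112782224 to 112787760, plus strand) encodes a transcription factor of crypt progenitors and some secretory cells. Spry2FF mice ranged from 15.5 to 26.6 (median 19.3) and Spry2IEKO mice from 18.6 to 22.8 (median 20.3). Spry2FF replicate 7 was the highest mouse, as it was for Lgr5, Lgr4, Axin2, Ephb2 and Smoc2, and the Spry2IEKO range lay within the Spry2FF range. The log2 fold change was 0.08 (standard error 0.117, 95% interval -0.17 to 0.34, adjusted p = 0.93 by limma), and in females alone it was -0.06.

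Ephb2 (ENSMUSG00000028664, chromosome 4, 136647539 to 136835988, minus strand) encodes a receptor for B-type ephrins that is highest at the crypt base and is a Wnt target. In litter A it was 19.96, 18.2 and 21.7 in Spry2FF mice and 10.4, 15.9 and 16.3 in Spry2IEKO mice. In litter B it was 13.6, 14.1 and 12.9 in Spry2FF mice and 10.3, 10.1 and 13.1 in Spry2IEKO mice. The genotypes were separate in litter A, where they also differed in sex, while 1 Spry2IEKO mouse lay among the Spry2FF mice in litter B. The means over both litters were 16.7 ± 3.69 (SD, n = 6) and 12.7 ± 2.84 (SD, n = 6). The log2 fold change was -0.39 (standard error 0.165, 95% interval -0.74 to -0.03, unadjusted p = 0.0351, adjusted p = 0.762 by limma). Within litter A it was -0.50 and within litter B -0.27. Over the fits without 1 mouse it ran from -0.46 to -0.31, with an unadjusted p under 0.05 in 6 of 12 cases and the highest, 0.0838, without Spry2FF replicate 7. In females alone it was -0.28 (unadjusted p = 0.228 by limma). Protein coding transcripts alone gave 14.8 ± 1.77 and 11.5 ± 2.32 (SD, n = 6 each) and a log2 fold change of -0.37.

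For comparison with Rnf43, the 250 bases before the RefSeq start of Ephb2, the other of the 2 genes with the largest differences, are given on the minus strand of GRCm38.p6 with CG dinucleotides in capitals.
Ephb2 (chr4:136836013-136836262, minus strand): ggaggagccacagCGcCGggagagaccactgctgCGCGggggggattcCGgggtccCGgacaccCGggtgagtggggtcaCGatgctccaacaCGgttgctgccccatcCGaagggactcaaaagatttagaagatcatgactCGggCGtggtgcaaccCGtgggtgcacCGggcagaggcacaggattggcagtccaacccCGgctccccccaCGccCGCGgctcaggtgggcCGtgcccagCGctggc
This window holds 20 CG dinucleotides, more than 82.1% of all windows. The TCF core CTTTG followed by AA, AT, TA or TT was looked for on both strands of the 7 windows found for 6 of the 10 genes (Lgr4, Rnf43, Axin2, Ascl2, Ephb2 and Ephb3). The 4 words share their first 5 letters. None of the 7 windows held one of these 4 words, which occur in 14.8% of all windows, and this says only that these letters are not in these 250 bases.

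Ephb3 (ENSMUSG00000005958, chromosome 16, 21204755 to 21223305, plus strand), a second ephrin receptor of the crypt base, differed less. Spry2FF mice ranged from 10.1 to 12.6 (median 11.6) and Spry2IEKO mice from 8.85 to 14.0 (median 10.2). Of the Spry2IEKO mice, 3 were below and 2 were above all Spry2FF mice, so their range was the wider one. The log2 fold change was -0.07 (standard error 0.113, 95% interval -0.31 to 0.18, adjusted p = 0.942 by limma). Summed over protein coding transcripts alone, Ephb3 was 9.17 ± 1.59 (SD) in Spry2FF mice and 7.95 ± 1.99 (SD) in Spry2IEKO mice. Smoc2 (ENSMUSG00000023886, chromosome 17, 14279506 to 14404790, plus strand) encodes a secreted matrix protein that is enriched in Lgr5-positive cells. Its level ran from 21.7 to 28.4 in Spry2FF mice (median 24.1) and from 18.9 to 27.4 in Spry2IEKO mice (median 22.4). Its log2 fold change was -0.09 (standard error 0.101, 95% interval -0.31 to 0.12, adjusted p = 0.911 by limma).

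**Figure D3:**
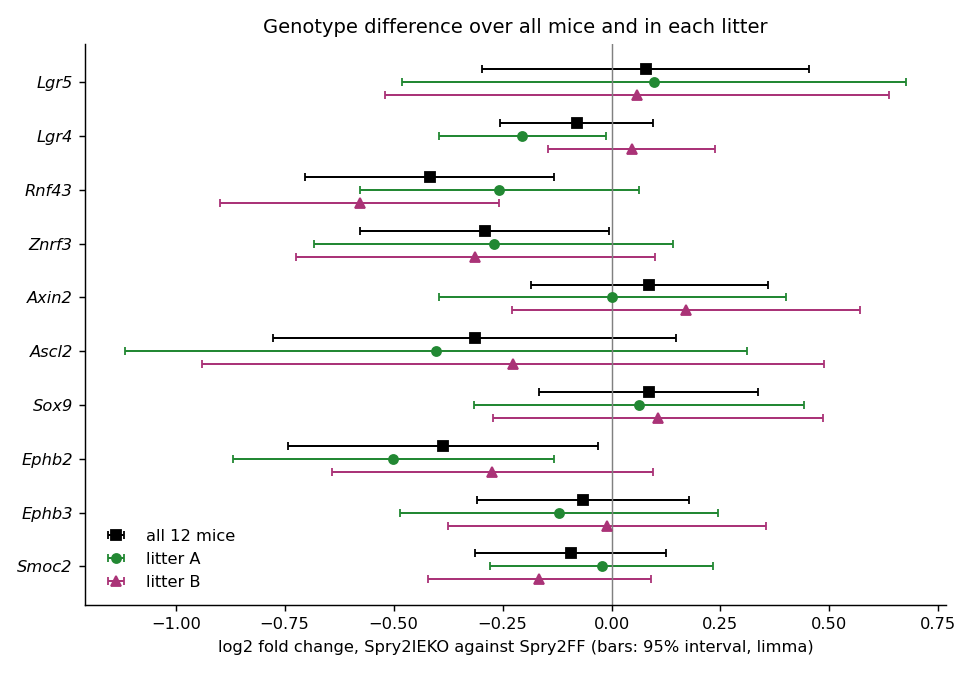
Log2 fold change of Spry2IEKO over Spry2FF (horizontal axis, bars for the 95% interval by limma) for each of the 10 genes over all 12 mice (squares), in litter A (circles) and in litter B (triangles). Rnf43, Znrf3 and Ephb2 lay below 0 in both litters, whereas Lgr4 lay at -0.20 for litter A and at 0.05 for litter B.

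The litters were compared within genotype to see how much of the spread they carried. Between litters, 0 of the 10 genes passed, against 4.38% of all genes (696 of 15880). At an unadjusted p under 0.05, Rnf43 was higher in litter B, and Ephb2, Smoc2 and Lgr4 were lower, against 7.08% of all genes higher and 14.8% lower. Ephb2 was nearest to the threshold, with a log2 fold change of litter B over litter A of -0.42 (standard error 0.118, adjusted p = 0.0613 by limma). Without Spry2IEKO replicate 4 it passed, at -0.53 (adjusted p = 0.0189 by limma). It also passed after the mice were rescaled to 1 total (-0.50, adjusted p = 0.0294 by limma). That rescaling moved the median litter difference of all genes from -0.05 to -0.12. The litter difference of Rnf43 was 0.28 (adjusted p = 0.153), that of Smoc2 -0.22 (adjusted p = 0.136) and that of Lgr4 -0.16 (adjusted p = 0.21), all by limma. With litter in the fit, the unadjusted p for genotype was 0.00233 for Rnf43, 0.00645 for Ephb2 and 0.0397 for Znrf3, with adjusted p-values by limma of 0.347, 0.432 and 0.579.

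Stromal markers moved with litter. Of 8 fibroblast markers, 8 were lower in litter B at an unadjusted p under 0.05 (14.8% of all genes) and 5 passed (3.31%). Their summed level ran from 516 to 853 in litter A and from 289 to 500.4 in litter B. Of 8 endothelial markers, 8 were lower and 7 passed, with sums from 63.8 to 114 and from 25.3 to 46.0. No marker of either list was at 0 in all mice. The part of these cells in the litter differences of Ephb2, Smoc2 and Lgr4 was not tested. No difference of the genotype effect between litters was shown for any of the 10 genes (interaction, adjusted p = 0.998 for each by limma), and 0.0126% of all genes passed that test. Within 1 litter, 3 of the 10 genes were lower in all 3 Spry2IEKO mice of litter A (Lgr4, Ascl2 and Ephb2), against 6.09% of all genes, and 2 of litter B (Rnf43 and Znrf3), against 5.26%. No gene of the 10 was so in both litters. In litter A the genotypes also differed in sex. By the mean, 6 were lower in mean in both, against 26.7% of all genes, and 3 were higher in both, against 29.8%.

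Epithelial markers are given beside the 3 lower genes. Of 12 epithelial markers, 0 passed by genotype, 6 were lower at an unadjusted p under 0.05, against 3.17% of all genes, and 10 were lower and 2 higher in mean, with a median log2 fold change of -0.18. Their summed level ran from 9945 to 12415 in Spry2FF mice and from 8455 to 10982 in Spry2IEKO mice, and none was at 0 in all mice. Cdh1, which encodes E-cadherin, had a log2 fold change of -0.22 and Vil1, whose promoter drives the Cre, of -0.23. Relative to the mean of the 12 markers, the log2 fold change was -0.26 for Rnf43 (unadjusted p = 0.066), -0.23 for Ephb2 (unadjusted p = 0.204) and -0.14 for Znrf3 (unadjusted p = 0.361), all by limma. This scale moved the median of all genes to 0.16. On it Lgr5, Axin2 and Sox9 were at 0.23, 0.24 and 0.24, and Lgr4, Ephb3 and Smoc2 were above 0, at 0.08, 0.09 and 0.06, but still below that median. How far epithelial content accounts for the 3 lower genes was not tested beyond these values.

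**Figure D4:**
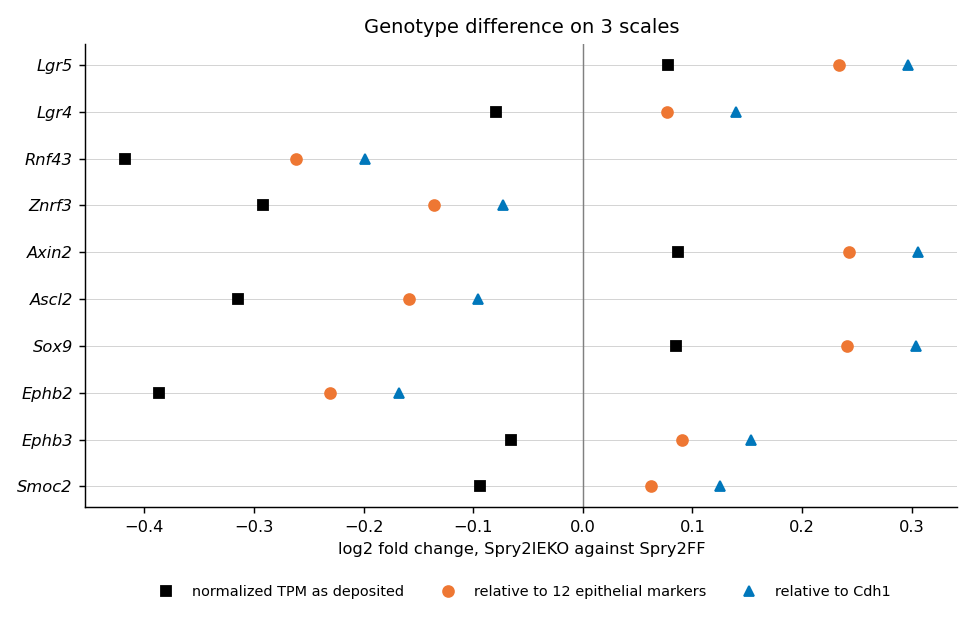
Log2 fold change of Spry2IEKO over Spry2FF (horizontal axis) for each of the 10 genes, as deposited (squares), relative to 12 epithelial markers (circles) and relative to Cdh1 (triangles). Each rescaling moved the genes up by the same amount, Rnf43 to -0.26 and -0.20, and Lgr4, Ephb3 and Smoc2 passed 0 while staying below the median of all genes (0.16 and 0.23).

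The 10 genes were also compared with each other from mouse to mouse. Of the 45 pairs among the 10 genes, 33 had a positive Pearson correlation over the 12 mice, with a median r of 0.20 and a range from -0.30 to 0.68, on the log2 scale. None passed after adjustment over the 45 pairs by a two-sided permutation test with 100000 resamples, and 5 had an unadjusted p under 0.05. Axin2 and Sox9 were the closest pair (r = 0.68, permutation p = 0.0154, adjusted p = 0.292; Spearman rho = 0.73, permutation p = 0.00865, adjusted p = 0.389). Litter A alone gave an r of 0.81 and litter B alone 0.77. Without the 2 mice farthest from the median of Axin2, Spry2FF replicates 3 and 7 of litter A, r was 0.26, whereas litter B holds neither of them. All points shared 1 scaling per mouse and the same mix of tissues.

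Over all genes tested, those most like Lgr5 across the 12 mice were Actr6 (r = 0.95), Tinag (0.89), Vma21 (0.86), Klhl3 (0.85) and Atp6v1e1 (0.84), as a description on the log2 scale. They were picked as the highest of all genes over only 12 mice, and this choice itself favors high values. In litter B, which does not hold Spry2FF replicate 7, the highest Lgr5 mouse, their r ran from 0.83 to 0.93. Sox9 stood at rank 117 in likeness to Lgr5 (r = 0.67), Ascl2 at 527 (0.52) and Axin2 at 536 (0.52). In litter B alone r was -0.04 for Sox9, 0.64 for Ascl2 and -0.08 for Axin2. Znrf3, at rank 13262 with r = -0.30, was the least like it of the other 9 genes.

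Other genes of the crypt base and of the pathway were described by list. Of 17 other stem cell and crypt base genes, 14 were tested, and 0 passed by genotype, against 0.0315% of all genes. At an unadjusted p under 0.05, 1 was higher and 2 were lower, against 3% of all genes higher and 3.17% lower. The median log2 fold change of the 14 was -0.00. The higher one was Aqp4, a water channel, at 16.7 ± 4.28 (SD, n = 6) in Spry2FF and 27.2 ± 8.73 (SD, n = 6) in Spry2IEKO mice. The lower ones were Cdca7 (48.9 ± 8.60 and 39.7 ± 5.95, SD, n = 6 each) and Lrig1. Lrig1 encodes an ErbB inhibitor of stem and progenitor cells. By PCR of colonic homogenates, the study reported no change of Lrig1 or Lgr5 between the genotypes. In the sequencing values Lrig1 was 44.8 ± 4.24 (SD, n = 6) in Spry2FF mice and 39.3 ± 4.72 (SD, n = 6) in Spry2IEKO mice. This was a log2 fold change of -0.19 (adjusted p = 0.797 by limma). Olfm4, a stem cell marker of the small intestine, was at most 0.355 in any mouse and was not tested.

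Of 23 other Wnt targets and feedback inhibitors, 16 were tested. By genotype 0 of them reached even an unadjusted p under 0.05, against 3% of all genes higher and 3.17% lower. Of the 16, 10 were higher and 6 lower in mean, with a median log2 fold change of 0.10. The lowest p-values were those of Bambi, a TGF-beta pseudoreceptor, at 0.27 (unadjusted p = 0.0581, adjusted p = 0.826 by limma), and of Wif1, a secreted Wnt inhibitor, at 0.43 (unadjusted p = 0.0933, adjusted p = 0.837 by limma). The secreted deacylase Notum and the target Sp5 were too low to test, with means of 0.0941 and 0.0186. Of 36 receptors, transducers and degradation complex components, 33 were tested and 0 reached an unadjusted p under 0.05 by genotype, with a median log2 fold change of -0.04. Axin1 (-0.15) and Dvl3 (-0.19) had the lowest p-values, 0.0838 and 0.0911 unadjusted by limma.

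By litter, 4 of these 33 components passed, all lower in litter B. They were Gsk3b (-0.53, adjusted p = 0.0112 by limma), the receptors Fzd1 (-0.58, adjusted p = 0.0197) and Fzd4 (-0.68, adjusted p = 0.0331), and Apc (-0.46, adjusted p = 0.0356), against 3.31% of all genes lower. The mRNA of Gsk3b was 25.6 ± 5.38 (SD, n = 6) in Spry2FF mice and 24.5 ± 5.58 (SD, n = 6) in Spry2IEKO mice, a log2 fold change by genotype of -0.07 (adjusted p = 0.964 by limma). Of 7 ligands of LGR and Eph receptors, 5 were tested. The ephrin gene Efnb1 was 49.6 ± 8.13 (SD, n = 6) in Spry2FF and 40.2 ± 5.51 (SD, n = 6) in Spry2IEKO mice, a log2 fold change of -0.29 (unadjusted p = 0.0341, adjusted p = 0.76 by limma). Rspo1, an R-spondin gene close to the limit of 0.5, was 0.735 ± 0.156 (SD, n = 6) and 0.505 ± 0.509 (SD, n = 6), with an unadjusted p of 0.173 by limma. The R-spondin gene Rspo3, which is made in the stroma, was 4.62 ± 1.01 (SD, n = 6) and 4.92 ± 1.92 (SD, n = 6).

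Among markers of the cells that stem cells give rise to, none passed by genotype. Of all genes, 3% were higher and 3.17% lower at an unadjusted p under 0.05, and 47.9% were lower in mean. Of 8 goblet cell markers, 8 were higher in Spry2IEKO mice, 7 of them at an unadjusted p under 0.05. Their median log2 fold change was 0.52. All 6 tested tuft cell markers were higher, 2 at an unadjusted p under 0.05, with a median of 0.47. Of 12 proliferation markers, 0 reached an unadjusted p under 0.05 and the median was 0.06. Of 8 colonocyte markers, 1, Car1, was lower at that level, and the median was -0.09.

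**Figure D5:**
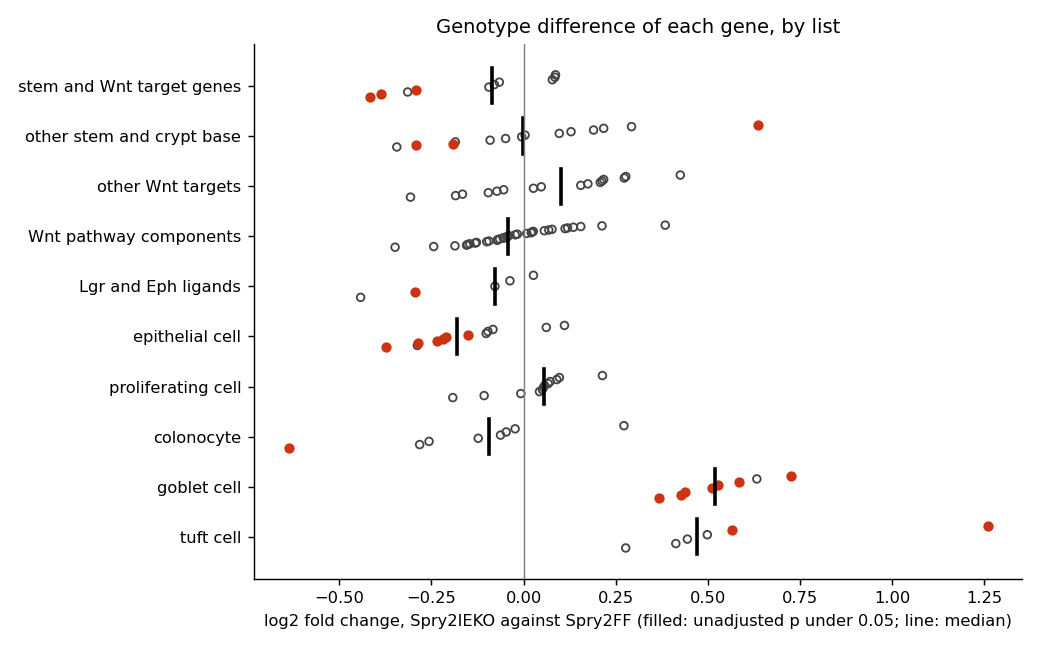
Log2 fold change of Spry2IEKO over Spry2FF (horizontal axis) for each tested gene of 10 lists, with filled points for an unadjusted p under 0.05 by limma and a line at the median of each list. The median of the stem cell and Wnt target genes was -0.09 and that of the goblet cell markers 0.52, and no gene shown passed after adjustment over all genes.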

How the data were processed

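Per the labels and the study's methods, the authors sequenced distal colon RNA of 12 mice, pseudoaligned reads with kallisto to the mouse transcriptome (the submitters' processing notes name mm10) and deposited 1 table of TPM per transcript, a signal scaled once more between mice. Labels and methods differ on read layout and age. The table also holds the authors' test statistics, p-values and q-values, which were not used.

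From 113974 entries, 781 repeated transcripts were dropped and 27 date-like gene names restored, and transcripts were summed to 35241 symbols. Unnamed transcripts took at most 0.0608% of a mouse's total. Symbols whose mean reached 0.5 (15880) were compared on log2(value + 0.5), which understates changes of low genes, by limma 3.58.1 in R 4.3.3 (two-sided, Benjamini-Hochberg over all genes), by genotype, by litter with genotype in the fit, and for their interaction. The reported genotype fit held no litter term, and genotype effects within each litter used the spread of all mice. The sample name prefix split the mice exactly as litter did, so prefix and litter cannot be told apart.

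The test had been planned for plain TPM and was kept for the scaled signal. Python 3.11.15 and SciPy 1.17.1 were used for the rest. The fit was tested on simulated data with known changes. Positions are those of GENCODE M21 on GRCm38. The members and lists were chosen with earlier results of these data known. Named besides the members were genes of the stem cell and Wnt lists that passed by genotype or litter (at most 4 a list by lowest p), otherwise up to 2 with the lowest p by genotype, Lrig1, and the 5 genes most like Lgr5. Cell type markers are given as counts and sums. Cdh1, Vil1, Olfm4, Notum, Sp5, Gsk3b by genotype, Rspo3 and Car1 were added once their values had been seen. Other settings tried were the pseudocount, filter, sex, litter, scaling, transcript choice and leaving out each mouse.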

Additional observations from a re-analysis of the deposited data

Results flagged for a closer look

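Of 24 groups of 6 mice examined for a single distant mouse, 3 held one, where chance gives about 1 in 20. Rnf43 was 12.7 in Spry2IEKO replicate 4, below the other Spry2IEKO mice at 17.2 to 18.9. In the same mouse the summed epithelial markers (8455) and colonocyte markers (5108) were the lowest of all 12 mice, and the goblet (18563), B cell (374) and endothelial (114) marker sums the highest. Their part in the Rnf43 value was not tested. Ascl2 was 10.4 in Spry2IEKO replicate 12, above the others at 3.57 to 5.41. That mouse had the lowest sums of smooth muscle (3366), fibroblast (289) and enteric glia and neuron markers (22.5), and the highest of colonocyte (9667) and tuft cell markers (35.5), and their part in the Ascl2 value was not tested. Lrig1 was 53.2 in Spry2FF replicate 7, above the others at 41.3 to 44.5. That mouse had the lowest sum of proliferation markers (294) and the highest sum of the 10 members (271), and their part in the Lrig1 value was not tested.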

How the results depend on the processing

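Under all 27 alternatives for genotype, 0 of the 10 members passed, and of their 270 log2 fold changes 257 kept their direction and 13 reversed. Reversed were Lgr5 with sex as a covariate (-0.081) and in females alone (-0.20), Sox9 in females alone (-0.056), Lgr4, Ephb3 and Smoc2 relative to Cdh1 (0.14, 0.15 and 0.12) and to epithelial markers (0.077, 0.090 and 0.062), Axin2 for the top transcript (-0.12) and protein coding transcripts, an alternative added after seeing the data (-0.13), and Lgr4 in litter B (0.046). The 6 reversals relative to Cdh1 and to epithelial markers come from a shift shared by all genes, whose median moved to 0.23 and 0.16, and these 3 genes stayed below it. By litter the Cdh1 scale moved that median to 0.17, and Cdh1 itself was lower in litter B (-0.22, adjusted p = 0.0282 by limma).

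By litter, reversed differences were those of Lgr5 and Sox9 in females alone (-0.11 and -0.052), Ephb3 with quantile normalization (0.022), Lgr5 and Ascl2 with rescaled totals (-0.065 and -0.031) and relative to epithelial markers (-0.049 and -0.011), and, relative to Cdh1, Lgr4 (0.065), Znrf3 (0.080), Axin2 (0.12), Ephb3 (0.16) and Smoc2 (0.00187). For the interaction they were Lgr5 with sex as a covariate (0.33), and Lgr5 and Znrf3 with quantile normalization (0.033 and 0.065) and rescaled totals (0.039 and 0.040). The interaction was not run in females alone, since litter A held 1 female Spry2FF mouse. The median litter difference of all genes moved from -0.05 to -0.12 with rescaled totals and to -0.10 relative to epithelial markers. Lgr5 and Ascl2 stayed above that median on both scales, so their litter reversals there come with a shift shared by all genes.

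Members passing by litter numbered 2 with rescaled totals (Ephb2, Smoc2), 1 relative to Cdh1 (Rnf43) and 1 relative to epithelial markers (Ephb2), against 0 as reported. Genes passing by genotype, 5 as reported, numbered 1 with no filter or with sex as a covariate, 2 in females, with quantile normalization, for top or coding transcripts and in litter A, 3 in litter B, 8 relative to epithelial markers and 9 relative to Cdh1. By litter, 696 as reported became 422 with no filter, 1 in females, 1456 with rescaled totals, 2498 relative to Cdh1 and 428 relative to epithelial markers. By interaction, 2 became 0 at a mean of at least 2. The causes were not tested.

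Leaving out each mouse gave 1 to 11 genes by genotype, 180 to 957 by litter and 2 to 5 by interaction, and 0 to 1 members by litter. Member differences that reversed ranged from -0.013 to 0.20 for Lgr5 by genotype, from -0.094 to 0.14 for Lgr5 and from -0.14 to 0.17 for Ascl2 by litter, and, for the interaction, from -0.35 to 0.18 for Lgr5, -0.024 to 0.35 for Axin2, -0.20 to 0.18 for Sox9, -0.19 to 0.12 for Znrf3, -0.23 to 0.49 for Ascl2 and -0.065 to 0.25 for Ephb3. No paired analysis was possible because each replicate number belonged to 1 mouse. The reported genotype fit had no litter term, and litter was added to it only as an alternative. Depth is not in the values, and the study's methods give only an approximate depth per sample, so no counting error could be given. Levels near 0.5 are the least certain.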
